A study of Homo sapiens with 6 samples.

Results

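The 10 genes described here encode the main heat shock proteins of the cytosol and the mitochondrial matrix. They are HSPA1A, HSPA1B and HSPA8 of the HSP70 family, HSP90AA1 and HSP90AB1 of the HSP90 family, the small heat shock protein HSPB1, the co-chaperones DNAJB1 and HSPH1, and the mitochondrial chaperonin HSPD1 with its co-chaperonin HSPE1. They were taken by gene symbol from a list drawn up with earlier results of these data known, and no value of theirs entered the rule. All 10 had a row among the 16279 genes of the count and FPKM tables (FPKM being read counts scaled by gene length and by the total of the library), and all 10 were among the 13311 genes kept for testing. The RNA came from 12Z, an established human cell line of endometriotic epithelial cells, so that the groups compare cultures of 1 line and not patients. The NC group (n = 3) was left untreated. The rhChemerin group (n = 3) received 10 ng/mL of recombinant human chemerin, a secreted ligand of the receptor CMKLR1, for 48 h. No genetic change was made in either group, and the libraries are labelled as biological replicates. The comparison asks how the transcriptome of 12Z cells differs after exposure to chemerin.

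Heat shock proteins are chaperones that bind unfolded or partly folded proteins. HSP70 proteins hold and release such clients in a cycle driven by ATP, with J-domain proteins such as DNAJB1 bringing clients and starting ATP hydrolysis, and HSPH1 releasing ADP. HSP90 proteins act later on a narrower set of clients, among them kinases and steroid hormone receptors. HSPB1 holds unfolded proteins without ATP, and HSPD1 and HSPE1 form the folding chamber and lid of the mitochondrial matrix. HSPA8 and HSP90AB1 are the forms made in unstressed cells, whereas HSPA1A, HSPA1B and DNAJB1 are known for their strong induction by heat. That induction runs through the transcription factor HSF1, which binds heat shock elements, inverted repeats of the unit GAA spaced by a pair of bases.

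Each library held between 35430881 and 38341643 counts on genes. TMM scaling factors, which correct for the make-up of a library, were 1.04 to 1.05 in NC and 1.00, 0.973 and 0.898 in rhChemerin replicates 1 to 3. The keratin genes KRT8 (748 to 966 FPKM), KRT18 (555 to 640 FPKM) and KRT19 (277 to 374 FPKM) were abundant in every library, but the epithelial adhesion genes CDH1 and EPCAM stayed under 1 FPKM (at most 0.381 and 0.807). The collagen gene COL1A1 (728 to 1165 FPKM) and LUM (64.98 to 156 FPKM) were abundant as well. Summed over 6 stromal markers, the FPKM were 1237 to 1460 in NC and 896 to 1546 in rhChemerin. Summed over 7 epithelial markers, they were 1596 to 1866 and 1760 to 1976. This sum rests mainly on KRT8, KRT18 and KRT19, whose means were higher in rhChemerin (917, 618 and 325 against 820, 608 and 295 FPKM). The other epithelial markers had lower means in rhChemerin. These were MUC1 (7.85 against 12.7 FPKM), KRT7 (1.61 against 1.66), CDH1 (0.129 against 0.310) and EPCAM (0.196 against 0.599). Of the stromal markers, DCN had a higher mean in rhChemerin and the others a lower one. The leukocyte gene PTPRC was at most 0.0535 FPKM and 3 endothelial markers together at most 0.691 FPKM, whereas CD68 lay between 70.0 and 134 FPKM. In bulk RNA, fewer cells of a kind and less RNA per cell cannot be told apart.

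The sequence before the start sites is given because heat shock elements are known from promoters of this kind. The 250 bases before each RefSeq start on GRCh38.p14 were searched on both strands for a run of 2 units (GAANNTTC or TTCNNGAA) and for a run of 3 units (GAANNTTCNNGAA or TTCNNGAANNTTC), the longer run containing the shorter. A run of 2 units lay before 8 of the 10 genes, against 13.96% of all 27305 genes with a window and 11.6% of all 35116 windows. A run of 3 units lay before HSPA8, HSP90AA1, HSP90AB1 and HSPD1, against 0.557% of all genes and 0.441% of all windows. The stretch of 30 bases around a run is given for each of the 8 genes (the run of 3 units nearest the start where there is one, otherwise the nearest run of 2 units), on the strand of the gene, with the units in capitals.
HSPA8: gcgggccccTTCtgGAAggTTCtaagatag
HSP90AA1: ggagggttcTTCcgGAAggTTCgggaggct
HSP90AB1: ctgagattgTTCtgGAAgcTTCtggattct
HSPD1: cattTTCtgGAAagTTCtgGAAccgagcga
HSPA1A: cgaaaaccctgGAAtaTTCccgacctggca
HSPA1B: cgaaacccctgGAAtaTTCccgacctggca
DNAJB1: ggcgggctctgGAAgcTTCcgccggacggg
HSPB1: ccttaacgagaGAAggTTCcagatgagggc

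These stretches lie at chr11:123062171-123062200 (minus strand) for HSPA8, chr14:102087112-102087141 (minus) for HSP90AA1, chr6:44247822-44247851 (plus) for HSP90AB1 and chr2:197500060-197500089 (minus) for HSPD1. The stretches with 2 units lie at chr6:31815426-31815455 (plus) for HSPA1A, chr6:31827622-31827651 (plus) for HSPA1B, chr19:14518426-14518455 (minus) for DNAJB1 and chr7:76302480-76302509 (plus) for HSPB1. HSP90AA1, HSP90AB1, DNAJB1 and HSPD1 have more than 1 RefSeq start, and a run was found before 1 start of each. The HSPD1 stretch lies between 220 and 249 bases before its start site, 290 bases from the start of HSPE1, which is transcribed the other way. GENCODE release 29 places all 30 bases of the stretches of HSPA8, HSP90AA1 and HSPD1 in annotated exons of those genes or, for HSPD1, of HSPD1 and HSPE1, and no base of the other stretches in an exon. HSPE1 and HSPH1 had neither run in their windows. The windows of HSPA1A and HSPA1B matched in 93.6% of aligned positions. A match of letters is a description of the window and not evidence that a factor bound there in these cells.

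In NC, HSPB1 was the most abundant of the 10 at 713 ± 37.7 FPKM (SD, n = 3 here and below), followed by HSPA8 at 469 ± 23.3 FPKM and HSP90AB1 at 438 ± 35.5 FPKM. HSP90AA1 had 250.5 ± 28.3 FPKM and HSPD1 106 ± 17.0 FPKM. HSPA1A (50.2 ± 1.11 FPKM), HSPA1B (37.2 ± 2.20 FPKM), DNAJB1 (30.4 ± 1.18 FPKM), HSPH1 (22.2 ± 5.35 FPKM) and HSPE1 (5.08 ± 1.89 FPKM) came below. Of neighbours in this order, HSPA8 and HSP90AB1 were the pair whose NC libraries overlapped. In rhChemerin the order was the same except that HSPA8 came before HSPB1. There the libraries of HSPA8 and HSPB1, of HSPB1 and HSP90AB1, and of DNAJB1 and HSPH1 overlapped. The level of HSPE1 rests on 63 to 156 counts per library and on a gene length of 557 bases in the deposited FPKM, where GENCODE release 29 gives 1977 exon bases. Its place as the lowest of the 10 is uncertain, since it shares exon bases with a read-through gene (below).

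**Figure D1:**
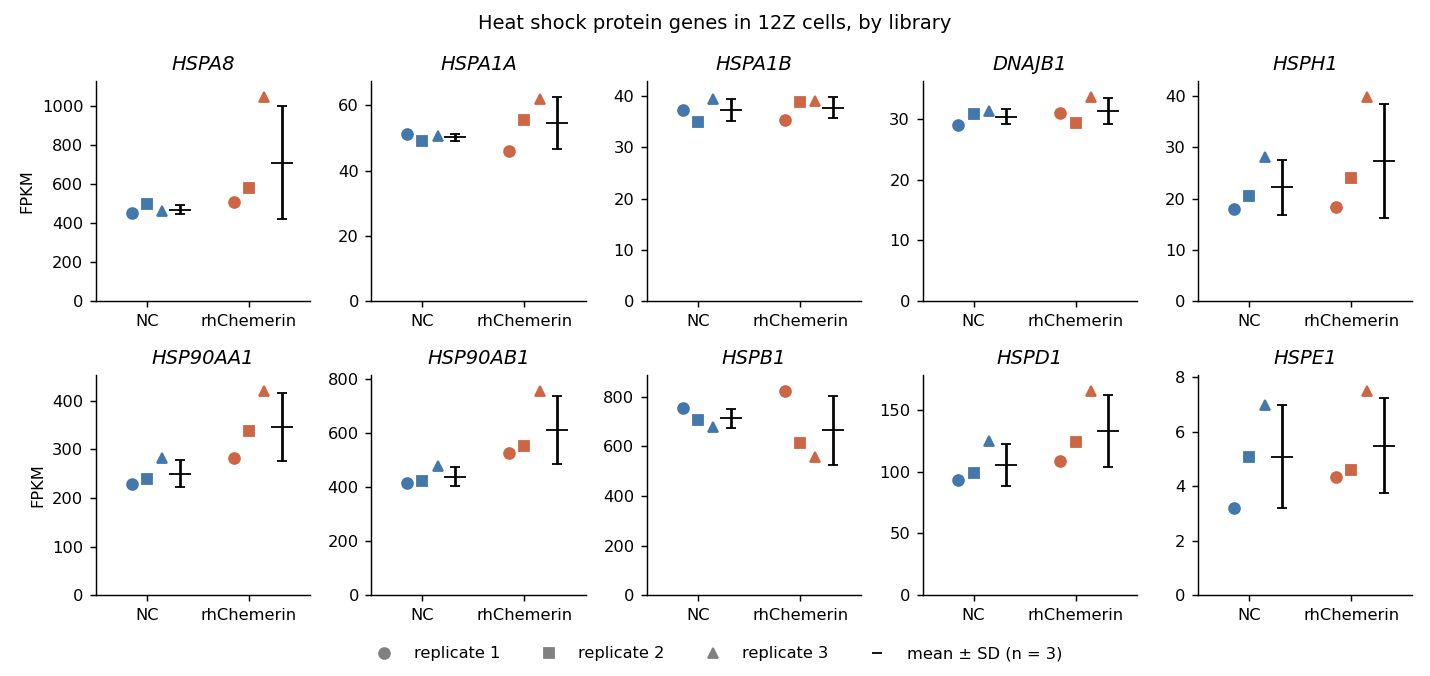
FPKM (vertical axis, from 0, scaled for each gene) of the 10 heat shock protein genes in the 3 NC and 3 rhChemerin libraries, with the mean and SD of each group in black. HSPA8 ran from 452 to 496 FPKM in NC and reached 1042 FPKM in rhChemerin replicate 3, whereas HSPA1B stayed between 35.004 and 39.4 FPKM in all 6 libraries.

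All 10 genes had a positive log2 fold change in rhChemerin against NC, from 0.023 for HSPB1 to 0.75 for HSPA8, with a median of 0.36. None had an adjusted p under 0.05 in edgeR's quasi-likelihood test, which called 0.0301% of all tested genes. HSPA8, HSP90AA1 and HSP90AB1 had an unadjusted p under 0.05, as did 22.8% of all tested genes. DESeq2, the tool of the study, called HSP90AA1 and HSP90AB1 at an adjusted p under 0.05, where it called 9.05% of 14382 genes. The study also required a fold change above 2, a cut not applied here or below. Neither gene reached that cut, with edgeR folds of 1.53 and 1.54. The likelihood-ratio test of edgeR called 2 of the 10 (7.12% of all tested genes), and the quasi-likelihood test without rhChemerin replicate 1 called HSP90AA1 (6.24%). DESeq2 without that library called 5 of the 10 (18.3% of 14288 genes). In log2 CPM, the counts scaled by library total and TMM factor, all 3 rhChemerin libraries lay above all 3 NC libraries for HSPA8, HSP90AA1, HSP90AB1 and DNAJB1. These were 4 of 10 genes, against 16.5% of all tested genes. Without rhChemerin replicate 1 the number was 7 higher and 1 lower (HSPB1), where 24.4% of all genes were higher and 25.4% lower. With 3 libraries against 3, an exact permutation test of a single gene cannot go below p = 0.10.

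Abundant genes as a class lay higher in rhChemerin. Among the 542 tested genes with a mean above 100 FPKM, the median log2 fold change was 0.25, 84.1% were positive and 55.2% were higher without overlap, against a median of 0.012 and 51.7% positive over all tested genes. HSPA8, HSP90AA1, HSP90AB1, HSPB1 and HSPD1 belong to that class, and 3 of these 5 were higher without overlap, a share near that of the class. With scaling by library size alone, the median of all tested genes was -0.12. The median of the 10 heat shock genes was then 0.21, that of the abundant genes 0.11, and 9 of the 10 stayed positive. HSPA8 and HSP90AB1 were then the 2 genes higher without overlap (7.35% of all tested genes), as they were with limma on the FPKM (7.36% of genes). With upper-quartile factors HSPA8, HSP90AA1 and HSP90AB1 were (13.5%).

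**Figure D2:**
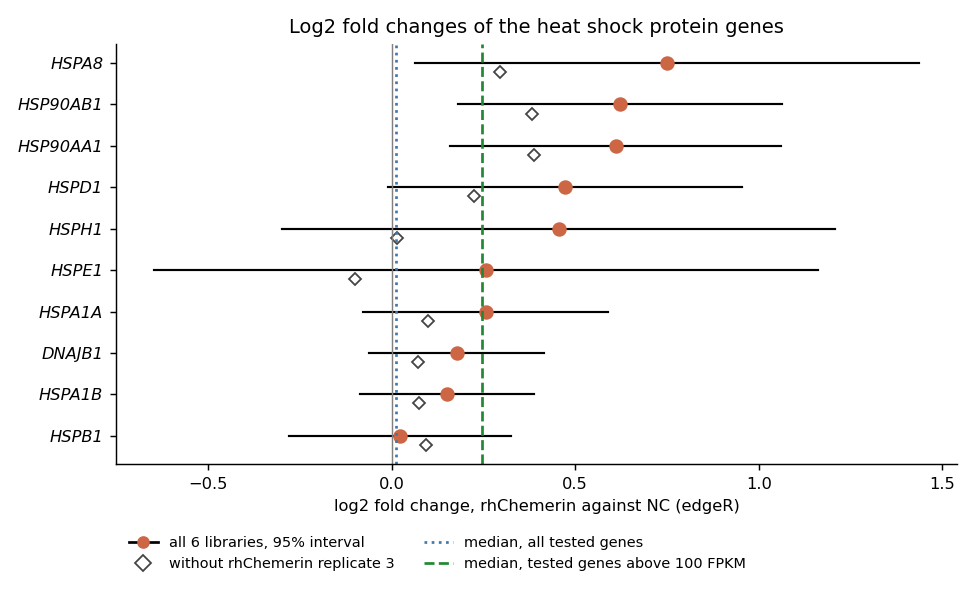
Log2 fold change of each heat shock protein gene, rhChemerin against NC, from edgeR (filled circles) with its 95% interval (lines), and the same without rhChemerin replicate 3 (open diamonds). The dotted and dashed lines give the medians of all tested genes (0.012) and of tested genes above 100 FPKM (0.25), and the intervals of HSPA8, HSP90AA1 and HSP90AB1 lie above 0 before adjustment for the number of genes.

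HSPA8, the HSP70 of unstressed cells (chr11:123057489-123063230, minus strand, GRCh38, GENCODE release 29), measured 452, 496 and 459 FPKM in NC replicates 1 to 3 and 507, 579 and 1042 FPKM in rhChemerin replicates 1 to 3. Every rhChemerin library was above every NC library, and replicate 3 stood far above replicates 1 and 2. The fold was 1.68, a log2 fold change of 0.75 (SE 0.29, 95% interval 0.06 to 1.44), with an adjusted p of 0.193 in edgeR and 0.0645 in DESeq2. Without rhChemerin replicate 3 the log2 fold change was 0.29, and the groups still did not overlap. Of its annotated exon bases, 3.61% are shared with the small nucleolar RNA genes SNORD14C and SNORD14D on the same strand. A run of 3 units before a start of HSPA8 is printed above.

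HSPA1A and HSPA1B, the heat-inducible HSP70 genes, lie beside each other at chr6:31815464-31817946 and chr6:31827735-31830255, both on the plus strand. HSPA1A measured 51.1, 48.9 and 50.5 FPKM in NC and 46.0, 55.4 and 61.9 FPKM in rhChemerin. One rhChemerin library lay below all NC libraries and the others above them. The log2 fold change was 0.26 (SE 0.14, 95% interval -0.08 to 0.59, edgeR adjusted p = 0.316), and 0.10 without rhChemerin replicate 3. HSPA1B measured 37.3, 35.004 and 39.4 FPKM in NC and 35.4, 38.7 and 39.0 FPKM in rhChemerin. Its groups overlapped almost wholly in FPKM. On the TMM scale (log2, relative to the NC mean) rhChemerin replicates 2 and 3 were at 0.16 and 0.29. Both lay above the highest NC library (0.08), whereas rhChemerin replicate 1 did not (-0.008). The log2 fold change of HSPA1B was 0.15 (SE 0.10, 95% interval -0.09 to 0.39, edgeR adjusted p = 0.397). The division of counts between these genes is uncertain. Of the windows of 150 bases (the read length) in the transcripts of HSPA1A, 63.2% also occur in HSPA1B, and 36.5% of the exon bases of HSPA1B are shared with AL671762.1 on the same strand. Of the HSPA1B windows, 70.0% occur in another gene. How reads that fit more than 1 gene were counted is not given. The sum of the 2 genes, and not only its division, may therefore be too low.

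DNAJB1, the J-domain partner of HSP70 that is induced with it by heat (chr19:14514770-14529770, minus strand), measured 29.03, 30.8 and 31.3 FPKM in NC and 31.0, 29.3 and 33.5 FPKM in rhChemerin. The groups overlapped in FPKM and were apart by a small step on the TMM scale, where the highest NC library was 0.04 and the lowest rhChemerin library 0.05 above the NC mean (log2). The log2 fold change was 0.18 (SE 0.10, 95% interval -0.06 to 0.41, edgeR adjusted p = 0.328). HSPH1, the HSP110 protein that frees HSP70 of ADP (chr13:31134974-31162388, minus strand), measured 17.9, 20.5 and 28.2 FPKM in NC and 18.3, 24.0 and 39.8 FPKM in rhChemerin. Both groups spread widely, with replicate 3 highest in each. Its log2 fold change of 0.45 (SE 0.32, 95% interval -0.30 to 1.21, edgeR adjusted p = 0.416) was 0.015 without rhChemerin replicate 3.

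HSP90AA1 and HSP90AB1, the inducible and the constitutive HSP90 of the cytosol, lie on different chromosomes, at chr14:102080738-102139699 (minus strand) and chr6:44246166-44253888 (plus strand). HSP90AA1 measured 229, 239 and 283 FPKM in NC and 281, 337 and 420 FPKM in rhChemerin. The lowest rhChemerin library was just under the highest NC library in FPKM and above it on the TMM scale. The log2 fold change was 0.61 (SE 0.19, 95% interval 0.16 to 1.06), with an adjusted p of 0.141 in edgeR and 0.0316 in DESeq2. HSP90AB1 measured 414, 421 and 479 FPKM in NC and 525, 553 and 755 FPKM in rhChemerin. All rhChemerin libraries were above all NC libraries on both scales. The log2 fold change was 0.62 (SE 0.19, 95% interval 0.18 to 1.06), with an adjusted p of 0.135 in edgeR and 0.0228 in DESeq2. Without rhChemerin replicate 3 the log2 fold changes were 0.39 and 0.38, and over DESeq2 fits without 1 library each the adjusted p ran from 2.77e-04 to 0.245 for HSP90AA1 and from 0.00104 to 0.210 for HSP90AB1.

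HSPB1, the small heat shock protein HSP27 (chr7:76302544-76304295, plus strand), measured 754, 706 and 679 FPKM in NC and 823, 615 and 559 FPKM in rhChemerin. The rhChemerin libraries lay on both sides of the NC libraries, and rhChemerin replicate 3 was the lowest of the 6 libraries. Its log2 fold change was 0.023 (SE 0.13, 95% interval -0.28 to 0.33, edgeR adjusted p = 0.927) and -0.10 with scaling by library size alone, so that its direction depends on the scaling.

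HSPD1 and HSPE1, the mitochondrial chaperonin and co-chaperonin, lie at chr2:197486581-197516737 (minus strand) and chr2:197499994-197503457 (plus strand). The annotated span of HSPE1 is thus inside that of HSPD1. From the RefSeq starts at chr2:197499840 (HSPD1) and chr2:197500379 (HSPE1), they are transcribed away from each other. HSPD1 measured 92.9, 99.1 and 125 FPKM in NC and 109, 124 and 165 FPKM in rhChemerin. NC replicate 3 overlapped with the lower rhChemerin libraries. The log2 fold change was 0.47 (SE 0.21, 95% interval -0.01 to 0.95, edgeR adjusted p = 0.226), and 0.22 without rhChemerin replicate 3. HSPE1 measured 3.19, 5.08 and 6.97 FPKM in NC and 4.35, 4.601 and 7.49 FPKM in rhChemerin. The groups overlapped, and the log2 fold change of 0.26 (SE 0.39, 95% interval -0.65 to 1.16, edgeR adjusted p = 0.708) turned to -0.10 without rhChemerin replicate 3. Of the exon bases of HSPE1, 14.2% overlap HSPD1 on the opposite strand and 9.71% the read-through gene HSPE1-MOB4 on the same strand, which was not analysed here. MOB4, which shares 16.2% of its exon bases with that read-through gene, had 0 to 4 counts per library. Whether reads shared with the read-through gene were left out of the HSPE1 counts was not tested. The level of HSPE1 may therefore be too low, and the HSPD1 to HSPE1 ratio carries the same limit.

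Together the 10 genes took 0.436%, 0.451% and 0.486% of the counts in NC replicates 1 to 3 and 0.509%, 0.549% and 0.763% in rhChemerin replicates 1 to 3. Relative to the NC mean, the median of the 10 genes (log2 CPM) was -0.06, -0.06 and 0.11 in the NC libraries and 0.11, 0.24 and 0.86 in the rhChemerin libraries. The median of the 10 was thus about equal in NC replicate 3 and rhChemerin replicate 1, and in log2 CPM 9 of the 10 genes (all but HSPB1) were highest in rhChemerin replicate 3. In FPKM these were 8, since HSPA1B was then highest in NC replicate 3. The abundant genes moved less between these libraries, with medians of 0.18, 0.23 and 0.34 in rhChemerin replicates 1 to 3. Over the mean of rhChemerin replicates 1 and 2, replicate 3 had 1.92 times the FPKM of HSPA8, 1.88 times that of HSPH1 and 1.67 times that of HSPE1. The corresponding values were 1.42 for HSPD1, 1.40 for HSP90AB1 and 1.36 for HSP90AA1, against 1.22 for HSPA1A, 1.11 for DNAJB1, 1.05 for HSPA1B and 0.777 for HSPB1. Without this library the median log2 fold change of the 10 was 0.10, with 9 positive and the same number of 4 higher without overlap (22% of tested genes). The part of this library in the differences, beyond these values, was not tested.

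**Figure D3:**
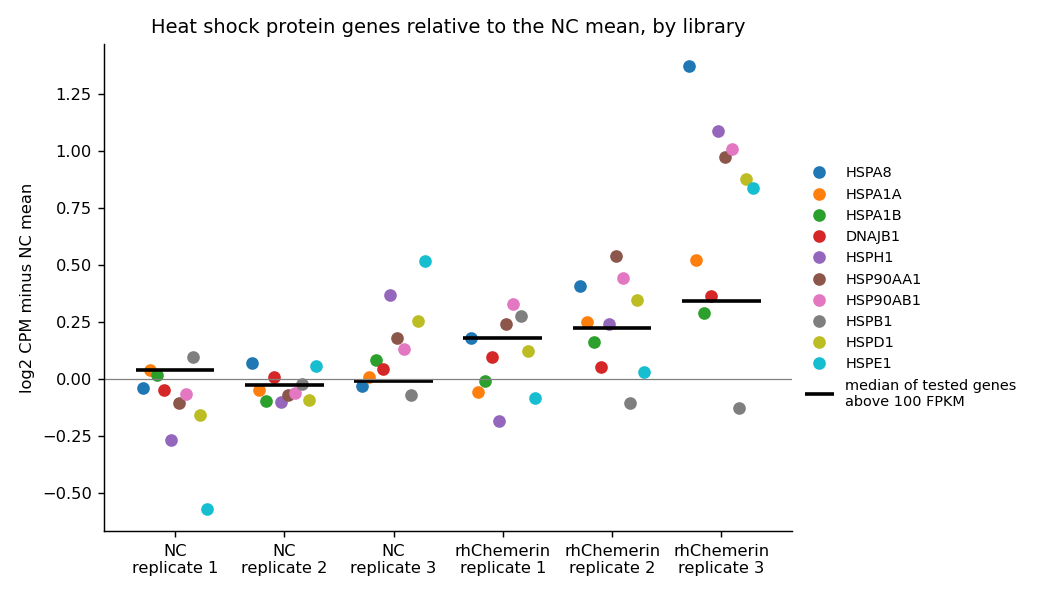
Log2 CPM of each heat shock protein gene relative to its NC mean (vertical axis) in each of the 6 libraries, with black bars for the median of the 542 tested genes above 100 FPKM. In rhChemerin replicate 3 HSPA8 stands 1.37 above its NC mean, and HSPB1 stands 0.13 below its NC mean.

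Over the 6 libraries, the genes of the HSP90 pair ran closest together. Of 45 pairs, HSP90AA1 and HSP90AB1 had the smallest root mean square difference in log2 CPM relative to the NC mean (0.06), followed by HSPA1B with DNAJB1 (0.09), HSP90AA1 with HSPD1 (0.11) and HSPA1A with HSPA1B (0.11). HSPA8 with HSPB1 was the farthest pair (0.65). Outside the 10, the genes nearest to their median course over the 6 libraries were ABCE1, ATAD3A, ZC3H15, PPP1R18 and WDR1, at root mean square differences of 0.025 to 0.038.

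Ratios within a library do not depend on its scaling, and 6 of them were compared. The ratio of HSP90AA1 to HSP90AB1 was 0.554, 0.568 and 0.590 in NC and 0.536, 0.610 and 0.557 in rhChemerin, a log2 difference of -0.0095 (exact permutation test, two-sided, p = 1). The groups overlapped fully. The summed FPKM of HSPA1A and HSPA1B over that of HSPA8 was 0.196, 0.169 and 0.196 in NC and 0.161, 0.163 and 0.0968 in rhChemerin. These levels may be too low, since reads that fit both HSPA1A and HSPA1B may not have been counted. This ratio of inducible to constitutive HSP70 was lower in every rhChemerin library, with a log2 difference of -0.45 (exact permutation test, two-sided, p = 0.1, the smallest possible, and 0.3 after Benjamini-Hochberg adjustment over the 6 ratios). DNAJB1 over HSPA8 was 0.0642, 0.0620 and 0.0681 in NC and 0.0611, 0.0506 and 0.0322 in rhChemerin, again with no overlap and a log2 difference of -0.48 (exact permutation test, p = 0.1, adjusted 0.3). In both ratios rhChemerin replicate 3 was the lowest library, and without it the log2 differences were -0.21 and -0.22, with 0.2 the smallest p that 2 libraries against 3 allow. HSPH1 over HSPA8, HSPA1A over HSPA1B and HSPD1 over HSPE1 overlapped between the groups (exact permutation p = 0.3, 0.4 and 0.5).

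**Figure D4:**
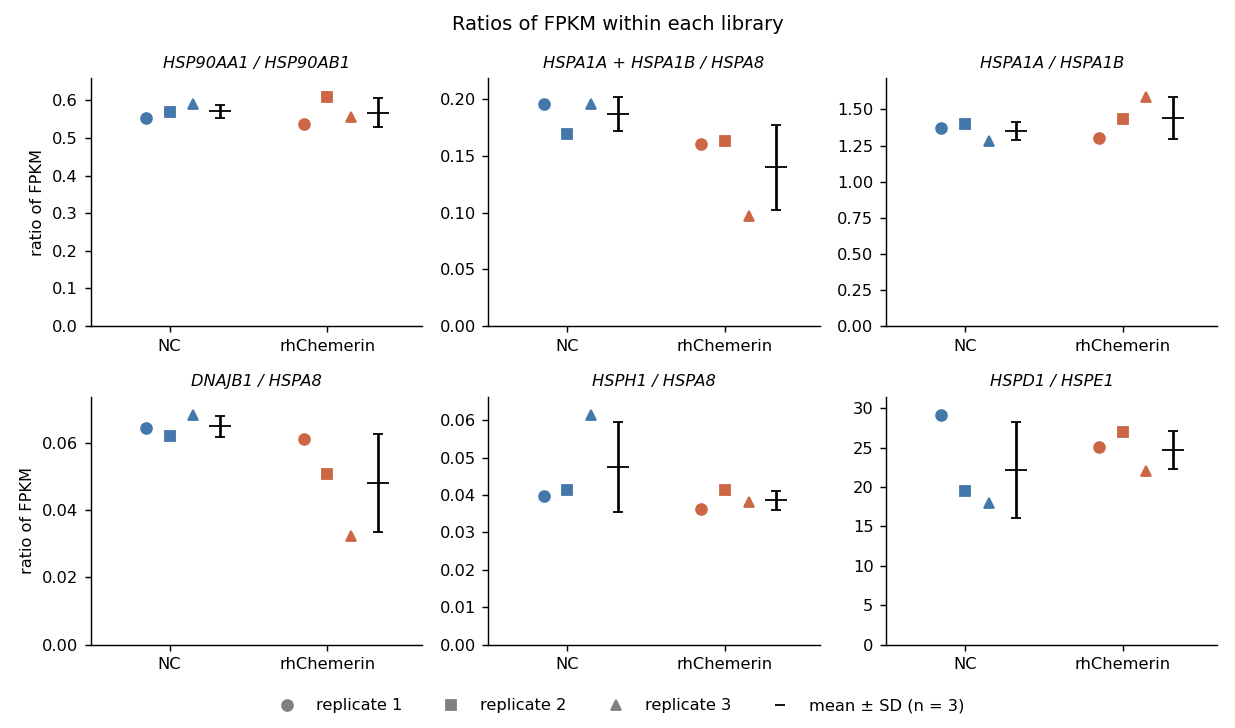
Ratios of FPKM between heat shock protein genes within each library (vertical axes, from 0), for 3 NC and 3 rhChemerin libraries, with the mean and SD of each group in black. HSPA1A plus HSPA1B over HSPA8 averaged 0.187 in NC and 0.140 in rhChemerin, and HSP90AA1 over HSP90AB1 averaged 0.571 and 0.568.

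The 4 genes with a run of 3 units before a start, HSPA8, HSP90AB1, HSP90AA1 and HSPD1, were also those with the largest log2 fold changes of the 10. HSPD1 (0.47) was just above HSPH1 (0.45), which has no such run, and HSPH1 came before HSPD1 without NC replicate 3 (0.66 against 0.61), without rhChemerin replicate 1 (0.69 against 0.62) and without rhChemerin replicate 2 (0.55 against 0.53). Over all 47 tested genes with such a run, the median log2 fold change was 0.08 and 25.5% were higher without overlap. With the 4 genes left out, the other 43 had a median of 0.05 and 20.9% higher without overlap, against 0.020 and 17.4% for the 10716 tested genes with a window. All 4 genes belong to those with a mean above 100 FPKM, a class with a median log2 fold change of 0.25. Of the 47 genes with such a run 7 were above 100 FPKM, of the other 43 it was 3, and of the 10716 it was 440. The part of abundance in these differences was not tested. The count of genes with this run was read after the values of the 10 were seen and was not tested.

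The transcription factor HSF1 measured 48.6, 49.2 and 56.4 FPKM in NC and 44.6, 48.4 and 55.4 FPKM in rhChemerin, a log2 fold change of 0.08 (SE 0.13, edgeR adjusted p = 0.726). HSF2, a second heat shock factor, had a log2 fold change of -0.15 (adjusted p = 0.573) and HSBP1, which binds HSF1, one of 0.14 (adjusted p = 0.398). The groups overlapped for all 3 genes. Of 5 genes of heat shock factors and their regulators, none was called by edgeR. DESeq2 called 1 of them, HSF2BP (DESeq2 adjusted p = 0.0372), where it called 9.05% of all genes. HSF2BP had 0.187 FPKM in NC and 0.0764 FPKM in rhChemerin, on 26 to 83 counts per library. It was lower without overlap, with a log2 fold change of -1.15. The median log2 fold change of the 5 genes was -0.15.

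In the other chaperone lists edgeR likewise called no gene, and directions differed between lists. Over all tested genes, 16.5% were higher and 16% lower without overlap. Among tested genes with a mean above 100 FPKM, 84.1% were positive, 55.2% higher and 4.98% lower without overlap. Some genes of these lists, such as CCT7 and HSP90B1, belong to that class. The part of abundance in the values of the lists was not tested. The cytosolic chaperonin CCT and prefoldin, which fold actin and tubulin, had 14 of 14 genes positive, with a median log2 fold change of 0.38 and 12 higher without overlap. DESeq2 called 2 of the 14, where it called 9.05% of all genes. TCP1, a chaperonin subunit, had 83.2 ± 4.57 FPKM in NC and 108 ± 17.9 FPKM in rhChemerin, and CCT7, another subunit, had 159 ± 5.73 and 195 ± 18.4 FPKM. Their log2 fold changes were 0.52 and 0.43, with DESeq2 adjusted p of 0.0388 and 0.0335. Without rhChemerin replicate 3 the median of the list was 0.21.

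Of 16 co-chaperones of HSP90, 14 were positive, with a median of 0.36, 6 were higher without overlap and DESeq2 called 3 of the 16 (9.05% of all genes). PTGES3 (p23), which steadies HSP90 on its client, had 69.0 ± 1.93 FPKM in NC and 79.6 ± 3.78 FPKM in rhChemerin, a log2 fold change of 0.34 (SE 0.095, edgeR adjusted p = 0.123, DESeq2 0.0399). TTC4 had a log2 fold change of 0.44 (DESeq2 adjusted p = 0.0495). Of 8 exchange and binding factors of HSP70, all were positive, with a median of 0.24. HSPBP1, which releases nucleotide from HSP70, had 23.3 ± 1.41 FPKM in NC and 31.1 ± 1.99 FPKM in rhChemerin. Its log2 fold change was 0.55 (SE 0.11), with an adjusted p of 0.0774 in edgeR and 0.00202 in DESeq2, and 0.44 without rhChemerin replicate 3. BAG6 had a log2 fold change of 0.26 (edgeR adjusted p = 0.171).

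Of 17 further J-domain proteins, 12 were positive, with a median of 0.09, 5 were higher and 2 lower without overlap, and neither tool called any. DNAJC9 (0.34) and DNAJC7 (0.34) had the smallest p among the higher genes, and DNAJB2 (-0.29) and DNAJC18 (-0.43) among the lower. Of 14 mitochondrial chaperones and proteases, 11 were positive, but the median was 0.09, or 0.0068 without rhChemerin replicate 3. The mitochondrial HSP70 HSPA9 measured 65.7, 70.8 and 76.1 FPKM in NC and 62.9, 68.4 and 97.8 FPKM in rhChemerin, with overlapping groups and a log2 fold change of 0.25 (SE 0.20, edgeR adjusted p = 0.467). DNLZ, a partner of HSPA9, had a log2 fold change of 0.62, and the protease LONP1 one of 0.12.

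The chaperones of the endoplasmic reticulum had 11 of 12 genes positive, with a median log2 fold change of 0.33, and 0.23 without rhChemerin replicate 3. DESeq2 called 2 genes higher and 1 lower, where it called 9.05% of all genes. HSP90B1, the HSP90 of this compartment, measured 252, 288 and 321 FPKM in NC and 326, 408 and 349 FPKM in rhChemerin, a log2 fold change of 0.46 (SE 0.14, edgeR adjusted p = 0.129, DESeq2 0.0280). PDIA3, a disulfide isomerase, had a log2 fold change of 0.56 (DESeq2 adjusted p = 0.0105). HSPA5 (BiP), the HSP70 of the compartment, overlapped between the groups, with a log2 fold change of 0.35 (SE 0.25, edgeR adjusted p = 0.416). DNAJB9, a J-domain partner of HSPA5, was lower in every rhChemerin library, at 5.94 ± 0.609 FPKM in NC and 3.53 ± 0.453 FPKM in rhChemerin, a log2 fold change of -0.62 (SE 0.17, edgeR adjusted p = 0.117, DESeq2 0.0171).

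Of 9 small heat shock proteins other than HSPB1, 5 were tested and neither tool called any. CRYAB and HSPB6 were lower and HSPB11 was higher without overlap. The log2 fold change was negative in 4 of the 5, with a median of -0.82, and -0.78 without rhChemerin replicate 3. This median is the value of HSPB6, which rests on 23 to 74 counts per library. HSPB8, with 335 to 1043 counts, had overlapping groups and a log2 fold change of -0.46, or -0.20 without rhChemerin replicate 3. HSPB2, HSPB3, HSPB9 and CRYAA did not pass the filter on low counts. CRYAB, the alpha B-crystallin, measured 2.22, 2.00 and 1.87 FPKM in NC and 1.06, 0.286 and 0.0231 FPKM in rhChemerin. Every rhChemerin library was below every NC library, but these values rest on 1 to 91 counts, and the log2 fold change was -2.05 (SE 0.85, 95% interval -4.05 to -0.06, edgeR adjusted p = 0.211, DESeq2 0.0946). HSPB6 had a log2 fold change of -0.82 (edgeR adjusted p = 0.289) and HSPB11 one of 0.14 (adjusted p = 0.347).

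Of 9 further HSP70 relatives, 7 were tested, with a median of 0.10, and 2 were lower without overlap. HSPA2, an HSP70 best known from spermatogenesis, measured 72.3, 67.3 and 63.7 FPKM in NC and 51.2, 38.5 and 14.1 FPKM in rhChemerin. Its log2 fold change was -0.87 (SE 0.37, edgeR adjusted p = 0.217, DESeq2 0.0821), and -0.52 without rhChemerin replicate 3. HSPA4L, an HSP110 relative, had 1.52 ± 0.327 FPKM in NC and 0.838 ± 0.0918 FPKM in rhChemerin, a log2 fold change of -0.73 (SE 0.18, edgeR adjusted p = 0.104, DESeq2 0.00798), and -0.71 without rhChemerin replicate 3. In rhChemerin replicate 3, where HSPA8 was at its highest, HSPA2 was at its lowest. HSPA6 and HSPA12B did not pass the filter on low counts.

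**Figure D5:**
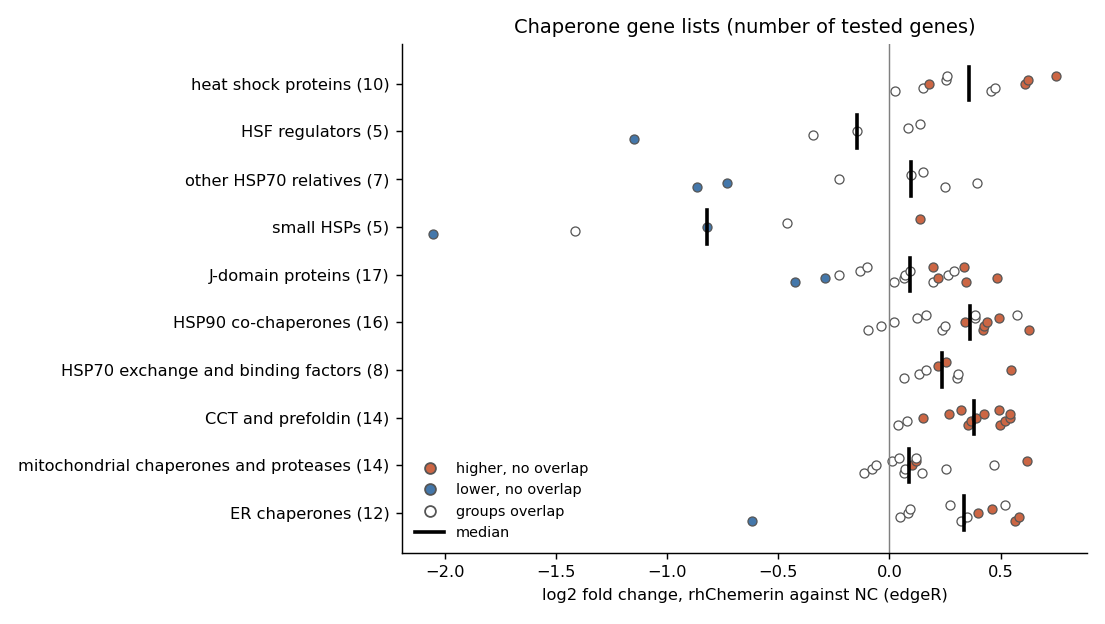
Log2 fold change, rhChemerin against NC (horizontal axis), of every tested gene in the 10 heat shock protein genes and 9 further chaperone lists, with the number of tested genes in brackets and the median as a black bar. Red and blue points are genes whose groups did not overlap. The CCT and prefoldin genes have a median of 0.38 and the small heat shock proteins one of -0.82, and edgeR called none of the genes shown. The latter median is that of 5 genes and is the value of HSPB6, at 23 to 74 counts per library.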

How the data were processed

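The authors extracted RNA with TRIzol, made libraries with the VAHTS Universal V6 kit, sequenced them as read pairs of 150 bases, cleaned reads with fastp, aligned them to GRCh38.p13 with HISAT2 and counted them with HTSeq. They deposited these read counts, not normalized, and FPKM computed from them. The strand setting, the annotation release and the tool behind the FPKM are not given in the sources used here. All 76321 FPKM values checked (counts of at least 20) were within 1% of the value that the count, 1 length per gene and the library's total give.

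The test was that of edgeR 4.0.16 in R 4.3.3 (TMM, filterByExpr, quasi-likelihood test) and Benjamini-Hochberg adjustment over 13311 genes. SE is the log2 fold change over the square root of F. Overlap of groups was read from log2 CPM with a prior count of 2. DESeq2 1.42.0, the likelihood-ratio test of edgeR and limma 3.58.1 (log2 of FPKM with 1 or 0.1 added) were alternatives, as were other scaling and filters, a replicate block and leaving out each library. Scripts were tested on simulated data. Ratios were tested with scipy 1.17.1. All intervals rest on the spread between 3 libraries per group.

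The members and lists were chosen with earlier results of these data known. The text names all 10 members, HSF1, HSF2, HSBP1, HSPA9, HSPA5 and HSP90B1. In each other list it names up to 2 genes per direction with the smallest edgeR p among those whose groups did not overlap. It also names the 5 genes nearest to the members' median course. Genes that did not pass the low-count filter are named for completeness, and HSPB8 and MOB4 are named for their counts. Start sites and promoter windows are from RefSeq (GRCh38.p14) and gene positions from GENCODE release 29 (GRCh38). Every one of the 10 genes matched both. Replicate numbers were not used to pair libraries, except in the replicate block.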

Additional observations from a re-analysis of the deposited data

How the results depend on the processing

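None of the 10 genes was called by edgeR's quasi-likelihood test. The number called was 2 with the likelihood-ratio test (7.12% of all tested genes) and 2 with DESeq2. Leaving out 1 library gave 0 to 1 with edgeR, where HSP90AA1 was called without rhChemerin replicate 1 (6.24% of genes), and 0 to 5 with DESeq2, a setting chosen after seeing the data, with 5 called without rhChemerin replicate 1 (18.3% of genes). Without rhChemerin replicate 3 the DESeq2 adjusted p was 0.0237 for HSPA8, 0.0259 for HSP90AA1 and 0.00178 for HSP90AB1. For the other genes of the 10 it was at least 0.33, and the share of all genes called in that fit was not counted. The 4 genes without overlap, all higher, became 3 with upper-quartile factors, 2 with library size alone, 2 with limma on log2(FPKM + 1), 2 with limma on log2(FPKM + 0.1), and 4 to 8 when 1 library was left out, with 8 (7 higher, 1 lower) without rhChemerin replicate 1 (24.4% and 25.4% of genes). The median log2 fold change of 0.36 ran from 0.10 to 0.58 when 1 library was left out, being 0.10 without rhChemerin replicate 3. HSPB1 turned to -0.10 with library size alone, to -0.0164 with upper-quartile factors, to -0.12 with limma at both pseudocounts, to -0.0106 without NC replicate 3 and to -0.13 without rhChemerin replicate 1 (-0.0126 and -0.12 with DESeq2). HSPE1 turned to -0.10 without rhChemerin replicate 3 (-0.09 with DESeq2) and ran up to 0.55 over the fits without 1 library. The log2 difference of the HSP90AA1 to HSP90AB1 ratio, -0.0095 over all libraries, ran from -0.062 to 0.0305 when 1 library was left out, and was above 0 without NC replicate 3, rhChemerin replicate 1 or rhChemerin replicate 3. The causes were not tested. Of 230 fold changes over 23 settings, 206 kept direction and side of the threshold, 14 passed it and 10 turned. Libraries of the same number correlated at 0.24, 0.0015 and 0.25 in their deviations from the group means, and libraries of different number at -0.31 to 0.11. The labels do not state a pairing, and their numbers were not taken as pairs in the main test. With the replicate block none of the 10 was called, their median was 0.32, and 1 gene of all tested was called in place of 4. The edgeR adjusted p was lower with the block for all of the 10 but HSPB1. It was 0.083 for HSP90AA1, 0.087 for HSPD1, 0.088 for HSP90AB1 and 0.1465 for HSPH1. DESeq2 called 1302. HSPE1, with 63 to 156 counts, has the fewest counts of the 10.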
